A study of Mus musculus with 39 samples.

Results

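The change of the epiblast from embryonic day (E) 5.5 to E6.5 was measured in mouse embryos without functional STAT3. The comparison set 8 *Stat3* null epiblasts at E6.5 against 3 at E5.5, 11 of the 23 epiblast libraries of these stages and of the 39 samples in the series, which also holds E7.5 epiblasts and epiblast stem cell lines. The other null library at E5.5, replicate 1, was left out because the kept libraries were selected on their *Pou5f1*, the gene of the epiblast factor OCT4. *Pou5f1* stood at 0.654 CPM (counts per 1000000 counts of the library) in replicate 1 and at 101 CPM in the lowest kept library, E5.5 null 2, so *Pou5f1* is given below without a test. All embryos were CD1 mice from matings between *Stat3* heterozygotes, each library was 1 epiblast freed by hand of visceral endoderm and extraembryonic ectoderm, and the genotype was read from the extraembryonic tissue. The null allele replaces exons for the SH2 and transactivation domains with a neomycin resistance cassette, so reads from its other exons still count on *Stat3*. Wild-type (WT) epiblasts of the same cross, 2 at E5.5 and 9 at E6.5, served for comparison. Litters were not given, and each mother carried a functional *Stat3* copy.

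Between these stages the mouse epiblast is a cup of epithelium that has left naive pluripotency, the state of the preimplantation embryo, and passes through a formative phase towards primed pluripotency, in which cells can answer the signals for gastrulation. WNT, NODAL and BMP signals exchanged between the epiblast and the extraembryonic tissues then induce the primitive streak at the posterior side, marked by *T* (Brachyury). STAT3 is the transcription factor that relays LIF and other gp130 cytokines through the JAK kinases, and it holds embryonic stem cells in naive pluripotency. The libraries hold RNA of a whole epiblast, so fewer cells of a type and less RNA per cell cannot be told apart.

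Reads on the targeted gene were counted first. *Stat3* was at 15.3, 22.6 and 20.2 CPM in the E5.5 null libraries, 9.21 CPM in the left-out one and 1.41 to 7.59 CPM at E6.5, against 49.4 and 39.3 CPM in WT at E5.5 and 5.84 to 27.2 CPM in WT at E6.5. Null was below WT at E5.5, and the ranges overlapped at E6.5. The 11 null libraries held 22941210 to 79013960 counts on genes, and 15171 to 21616 genes had at least 1 count. E6.5 null 2 and 3 stood apart from the other 6 of their stage in this, with 15531 and 15171 genes detected against 19178 to 21616. Markers of neighbouring tissues moved with stage. The 18 visceral endoderm genes summed to 7795 to 12504 CPM in the 3 E5.5 libraries and to 171 to 7083 CPM at E6.5, where null 3, 4 and 8 held 4665 CPM or more. The 16 extraembryonic ectoderm genes summed to 336, 1126 and 1209.9 CPM at E5.5 and to 71.9 to 267 CPM in 7 of the E6.5 libraries. E6.5 null 1 stood apart with 1856 CPM, and all 16 of these genes were highest in it among the 8 E6.5 libraries. The left-out E5.5 null 1 held 2919 CPM of extraembryonic ectoderm genes and 53.1 CPM of visceral endoderm genes. The 10 maternal and blood genes summed to at most 13.7 CPM in the 11 libraries, and 4 of them were at 0 in all. These sums moved with stage, and their part in the results was not tested beyond the fits given below that take each sum as a covariate or keep only null 3, 4 and 8.

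**Figure D1:**
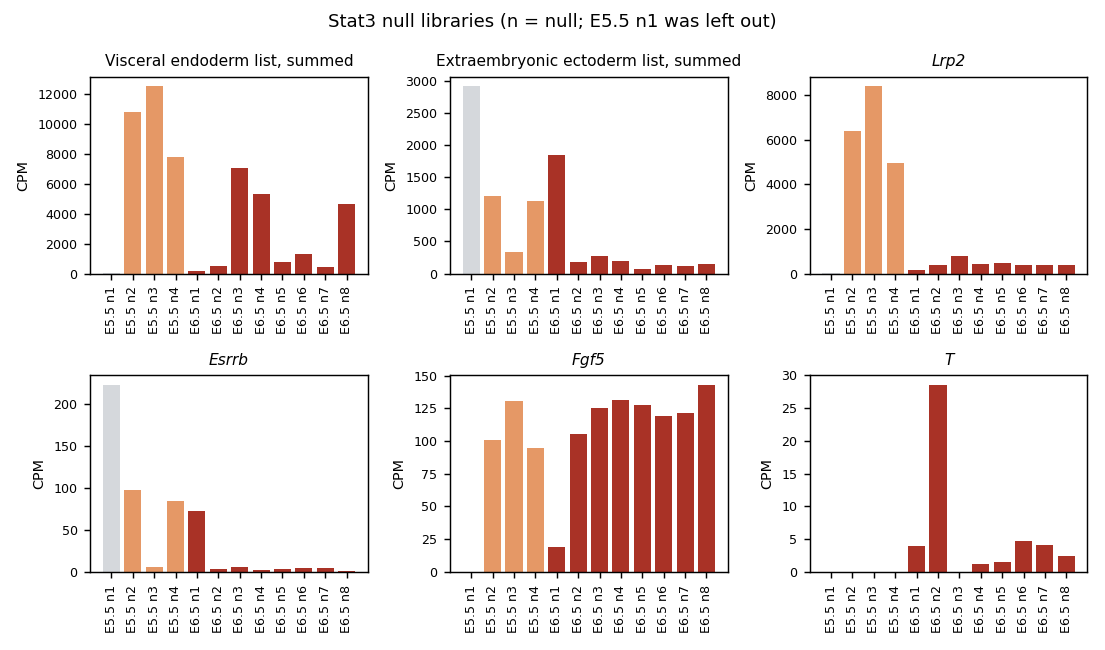
CPM (vertical axes, from 0) in each *Stat3* null library: the summed visceral endoderm and extraembryonic ectoderm lists and 4 single genes. Bars are single libraries in grey (E5.5 null 1, left out), orange (E5.5) and red (E6.5). *Lrp2* is at 4935 to 8386 CPM in the 3 kept E5.5 libraries and at no more than 797 CPM at E6.5, also in null 3, 4 and 8, while *Esrrb* is high where the extraembryonic ectoderm list is high.

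Without STAT3, 282 genes were higher and 238 were lower at E6.5 than at E5.5, out of 19099 genes tested. The pluripotency genes *Sox2* and *Lin28b*, the SOXC gene *Sox11*, the neural progenitor genes *Msi1* and *Nes* and the cyclin gene *Ccnd1* rose, while *Lrp2*, *Sparc*, *Dppa5a* and *Rex2* fell, and each of these kept its call whichever library was left out. The gene lists that hold the risen genes, described below, were mixed. Fold changes below 0 made up 11 of 14 in the naive list, 6 of 13 in the developmental and 6 of 12 in the neural progenitor list. They made up 3 of 14 in the primed and 5 of 19 in the cell cycle list. Called genes (adjusted p under 0.05 by edgeR's quasi-likelihood test and a log2 fold change beyond 1 in size) made up 2.72% of those tested, 1.48% in the higher and 1.25% in the lower direction. At any size of change 912 genes passed the adjusted p, and 3520 had an unadjusted p under 0.05. The 8 E6.5 libraries did not overlap the 3 E5.5 libraries in CPM for 445 of the called genes, and for 9.55% of all genes tested. Leaving out 1 library at a time gave 131, 202 and 227 genes for replicates 2, 3 and 4 of E5.5. For E6.5 it gave 864 when replicate 3 was dropped, and 333, 333 and 325 for replicates 5, 6 and 7. Dropping E6.5 null 1 gave 820, and 512 of the 520 genes were among them. With the left-out E5.5 null 1 added, 363 genes were called. With the visceral endoderm sum as a covariate 204 genes were called, 142 of them among the 520, and with the extraembryonic ectoderm sum 125 genes, 115 of them among the 520; each of the 520 kept its direction in both fits. Of the genes described below, *Stat3*, *Stat5b*, *Pim2*, *Sfrp2*, *Lefty2*, *Pfkm*, *Plet1*, *T*, *Zic5* and *Lama1* lost their call with either sum (adjusted p 0.0589 to 0.249 with the first and 0.111 to 0.500 with the second), and *Dppa4* lost it with the second (adjusted p 0.105). *Rps2* in both fits, *Slc9a3r1* in the first and *Fat1* and *Sox4* in the second went under the fold threshold. With E5.5 null 1 added, *Robo1*, *Car7*, *Smarca2*, *Abcb1b*, *Sox11*, *Sox4*, *Nkd2*, *Sfrp2*, *Lefty2*, *Pim2* and *Stat5b* lost it (adjusted p from just over 0.05 to 0.305), and *Rps2* fell under the fold threshold.

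**Figure D2:**
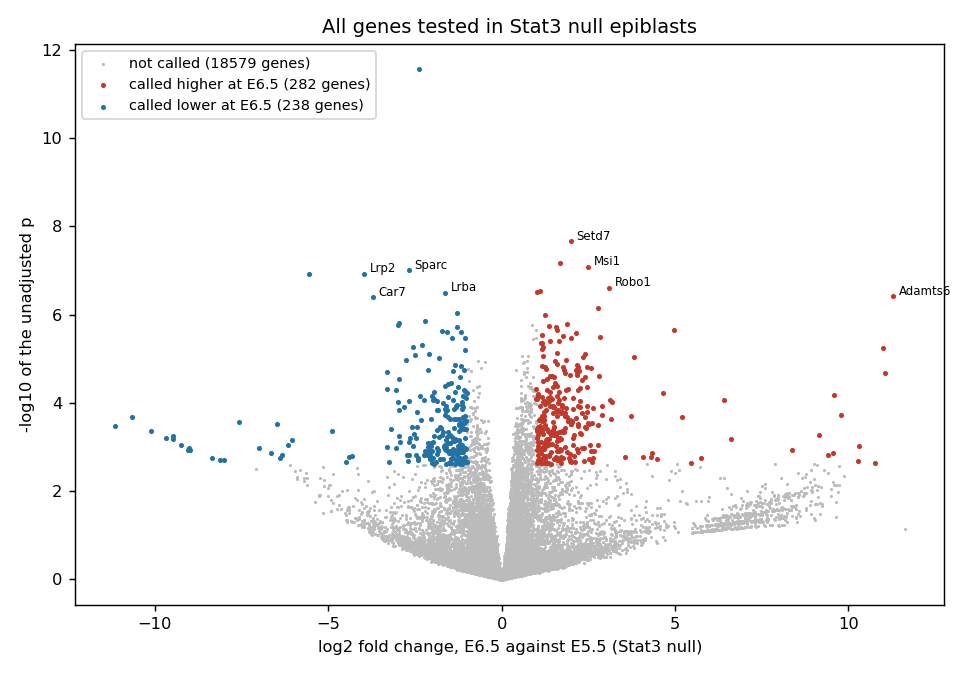
Each point is 1 of the 19099 genes tested, with the log2 fold change from E5.5 to E6.5 in *Stat3* null epiblasts (horizontal) and −log10 of the unadjusted p (vertical). Red and blue mark the 282 genes called higher and the 238 called lower, and 8 of the genes described in the text carry their name. Points far to either side, such as *Adamts6*, have a stage at or near 0 counts, where the fitted fold change is no measure of size.

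The 10 higher and 10 lower calls named by rule had the smallest p among called genes whose stages did not overlap. Symbols of the form Gm and digits, Rik and -ps were left out, as were Xist and Y-linked genes. The separation of the stages was thus a condition of the choice for these genes. Among the 10 higher calls, *Setd7*, which encodes a lysine methyltransferase, came first. It lies at chr3:51515319-51560879 and overlaps 1 annotated gene on each strand, *Gm38200* and *5031434O11Rik*. It read 28.6, 30.8 and 31.8 CPM in the 3 E5.5 libraries and 103 to 154 CPM with a median of 113 at E6.5. As the choice required, every E6.5 epiblast lay above every E5.5 epiblast. The log2 fold change was 2.01 ± 0.17 (SE, adjusted p 0.000207). *Msi1* (chr5:115429599-115455698) encodes the RNA-binding protein Musashi-1 of neural progenitors. Its level was 19.1, 21.2 and 23.6 CPM at E5.5 and 69.1 to 149.9 CPM with a median of 126 at E6.5, a log2 fold change of 2.50 ± 0.24 (adjusted p 0.000332). *Robo1* (chr16:72308306-73046095), a receptor for SLIT guidance cues, rose from 10.2, 11.1 and 11.8 CPM to a range of 36.4 to 127 CPM with a median of 100. Its log2 fold change was 3.10 ± 0.33 (adjusted p 0.000551), and E6.5 null 1 was the lowest of the 8 yet still above each E5.5 library.

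The insulin-like growth factor receptor gene *Igf1r* was at 41.3, 38.7 and 53.4 CPM at E5.5 and at 115 to 235 CPM with a median of 150.0 at E6.5, a log2 fold change of 1.88 ± 0.23 (adjusted p 0.00154). *Myo5a*, an actin motor that carries organelles, rose by 1.70 ± 0.16 on the log2 scale from 56.4, 35.9 and 35.05 CPM to a range of 117 to 145 CPM with a median of 140.1 (adjusted p 0.000332). *Zmynd8*, a chromatin reader, rose by 1.25 ± 0.15 from 163, 177 and 137 CPM to a range of 267 to 475 CPM with a median of 377 (adjusted p 0.00122). By the rule of choice, these genes did not overlap between the stages. The E5.5 libraries agreed closely in *Fat1*, an atypical cadherin of the cell surface, at 415, 415 and 416 CPM. The 8 E6.5 libraries ranged from 709 to 1041 CPM with a median of 875, and the log2 fold change was 1.11 ± 0.12 (adjusted p 0.000551). *Adamts6*, a secreted metalloprotease, had no count in any of the 3 E5.5 libraries and 3.39 to 13.5 CPM with a median of 7.42 at E6.5. Set against a floor of 3 counts per E5.5 library, it was at least 82.4-fold higher at E6.5. *Rps2*, also among the 10, is described last. *Trh*, the precursor of thyrotropin-releasing hormone, was picked after its values were seen. It went from 2.05, 1.16 and 0.621 CPM to a range of 8.26 to 65.3 CPM with a median of 40.8, a log2 fold change of 4.98 ± 0.64 (adjusted p 0.00159).

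**Figure D3:**
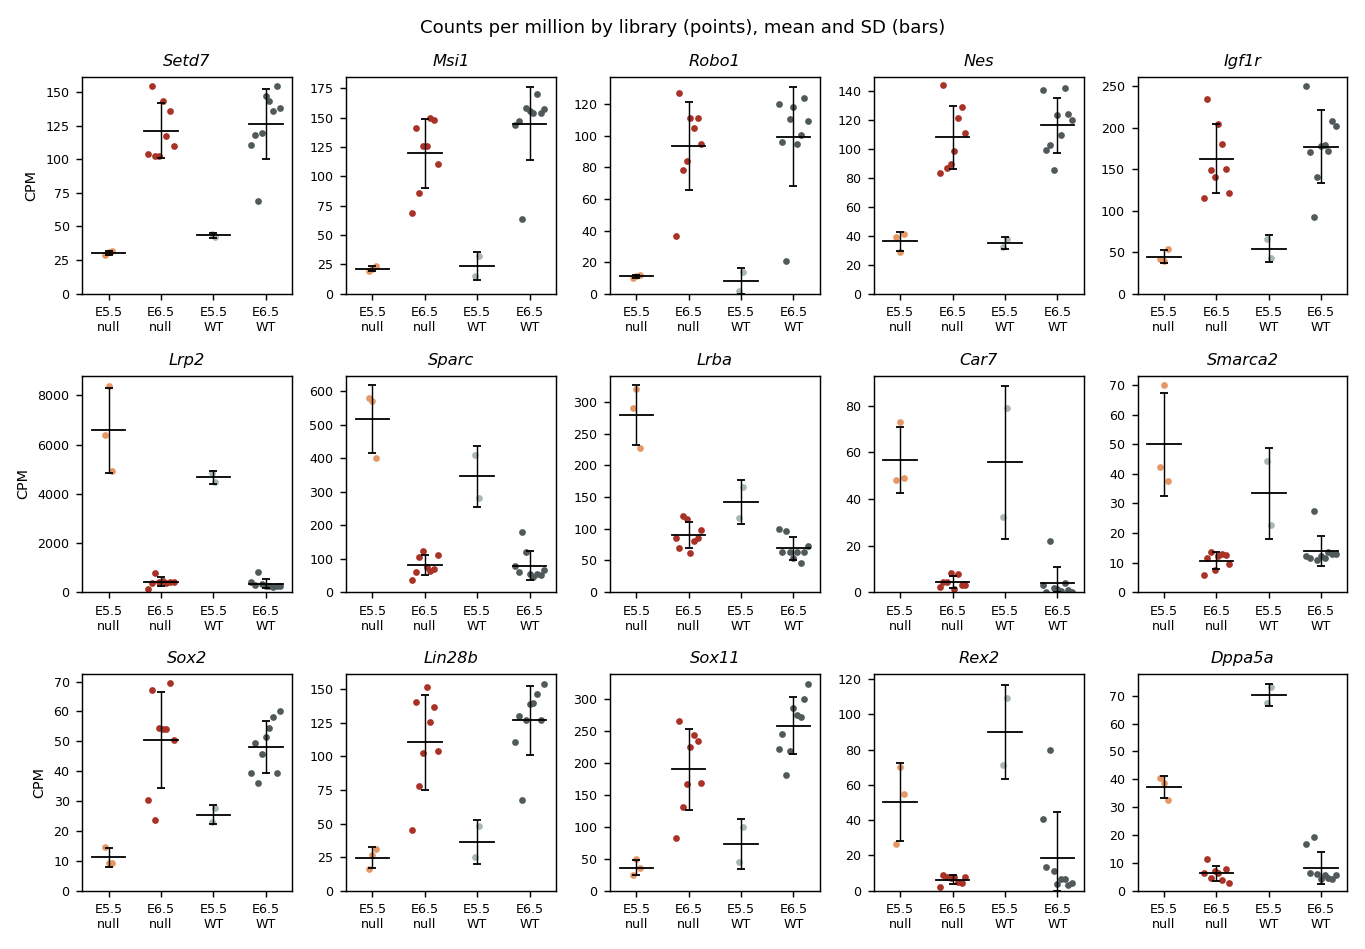
CPM of 15 genes by library (points), with the group mean (line) and SD (bars, stopped at 0), in 3 E5.5 null, 8 E6.5 null, 2 E5.5 WT and 9 E6.5 WT epiblasts; each vertical axis starts at 0. In the null columns the stages do not overlap for any of the 15 genes, for example *Setd7* at 28.6 to 31.8 against 103 to 154 CPM and *Lrp2* at 4935 to 8386 against 143 to 797 CPM. This separation was a condition of the choice for all but *Nes*, *Sox2*, *Lin28b*, *Sox11* and *Dppa5a*.

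The promoters are shown for called genes of the text that hold a motif of a factor discussed here, from RefSeq on GRCm38.p6 and read 5′ to 3′ along the gene, 250 bases before the start and 50 after it. The 3 motifs were searched on both strands: TTCNNNGAA, bound by STAT dimers and the same on both strands, ATTTGCAT, the octamer of OCT4, and CTTTGAT, bound by TCF and LEF. Capitals mark the matches. *Setd7* (chr3:51560774-51561073, minus strand) holds TTCNNNGAA, *T* (chr17:8434173-8434472, plus strand) holds it just after the start, *Sfrp2* (chr3:83766071-83766370, plus strand) holds ATTTGCAT, and *Pim2* (chrX:7878056-7878355, plus strand) holds ATTTGCAT on each strand and CTTTGAT on the minus strand.
Setd7: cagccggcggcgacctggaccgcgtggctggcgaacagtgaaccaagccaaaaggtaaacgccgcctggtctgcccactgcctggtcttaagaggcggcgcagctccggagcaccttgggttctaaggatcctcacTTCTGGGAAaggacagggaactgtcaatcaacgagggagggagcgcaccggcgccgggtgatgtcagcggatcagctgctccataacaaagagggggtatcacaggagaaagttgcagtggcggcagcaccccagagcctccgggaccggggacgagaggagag
T: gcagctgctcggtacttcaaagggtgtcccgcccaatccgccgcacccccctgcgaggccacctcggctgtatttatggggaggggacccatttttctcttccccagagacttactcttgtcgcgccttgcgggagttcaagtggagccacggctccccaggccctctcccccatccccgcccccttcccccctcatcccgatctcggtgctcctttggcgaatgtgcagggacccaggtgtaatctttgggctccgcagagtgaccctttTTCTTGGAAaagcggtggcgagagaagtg
Sfrp2: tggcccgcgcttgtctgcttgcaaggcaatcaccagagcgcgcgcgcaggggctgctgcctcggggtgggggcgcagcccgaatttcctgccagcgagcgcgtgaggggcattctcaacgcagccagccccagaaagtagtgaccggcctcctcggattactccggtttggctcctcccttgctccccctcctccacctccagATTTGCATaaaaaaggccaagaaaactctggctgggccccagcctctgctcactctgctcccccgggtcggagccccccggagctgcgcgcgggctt
Pim2: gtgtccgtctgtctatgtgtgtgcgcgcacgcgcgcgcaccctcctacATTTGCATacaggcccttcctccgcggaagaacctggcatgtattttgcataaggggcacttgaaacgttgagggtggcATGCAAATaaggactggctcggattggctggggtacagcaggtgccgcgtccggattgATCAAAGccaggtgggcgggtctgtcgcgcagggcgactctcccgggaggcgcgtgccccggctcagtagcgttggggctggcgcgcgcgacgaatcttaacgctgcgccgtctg
A promoter was matched by symbol for 11373 of the 19075 symbols tested. TTCNNNGAA stood in 8.0% of the 199 matched promoters of genes called higher, 5.1% of the 175 of genes called lower and 8.2% of all. ATTTGCAT stood in 2.5%, 1.7% and 1.6%, and CTTTGAT in 4.5%, 1.1% and 3.0%, in the same order. Of the 20 genes named by rule, 17 were matched, and *Setd7* was the only 1 with a match to any of the 3 motifs.

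The lower calls were led by *Sparc* and *Lrp2*. *Sparc* (chr11:55394500-55423183), a glycoprotein of basement membranes, was at 579, 571 and 402 CPM at E5.5 and at 37.4 to 124 CPM with a median of 72.1 at E6.5, a log2 fold change of -2.68 ± 0.26 (adjusted p 0.000332). *Lrp2* (chr2:69424340-69586065) encodes megalin, the large endocytic receptor that takes up ligands with cubilin, amnionless and the adaptor DAB2 on the apical face of the visceral endoderm. No annotated gene overlaps either. *Lrp2* fell from 6405, 8386 and 4935 CPM to a range of 143 to 797 CPM with a median of 399, a log2 fold change of -3.96 ± 0.34 (adjusted p 0.000332). The lowest E5.5 library was above the highest E6.5 library for both genes, as the choice required.

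The partners of megalin, from the visceral endoderm list, were not called. *Cubn* was at 5515, 6321 and 3801 CPM at E5.5 and at 50.7 to 1883 CPM with a median of 211 at E6.5 (adjusted p 0.0742). *Dab2* had a log2 fold change of -1.80 ± 0.74 (adjusted p 0.227) and *Amn* of -2.09 ± 0.94 (adjusted p 0.271). *Apob*, a lipoprotein of this tissue, was at 3125, 2345 and 2408 CPM in E6.5 null 3, 4 and 8, against 2429.8, 3001 and 1908 CPM at E5.5. These 3 libraries were lower than E5.5 in other markers of the list, such as *Dab2*, at 753, 590.5 and 421 CPM against 1155, 1120.2 and 857 CPM, and their list sums of 7083, 5339 and 4665 CPM were each below the lowest E5.5 sum of 7795 CPM. *Cubn* alone made up 5515, 6321 and 3801 CPM of the E5.5 sums of 10817, 12504 and 7795 CPM. The gap in the sums, and the sum taken as a covariate, therefore depend strongly on this gene. In E6.5 null 3, 4 and 8 *Lrp2* was at 797, 418 and 399 CPM. Between those 3 libraries and E5.5, the log2 fold change of *Lrp2* was -3.61 (adjusted p 0.00562), that of *Sparc* -2.20 (adjusted p 0.0035) and that of *Cubn* -2.17 (adjusted p 0.0404). The visceral endoderm list had a median of -0.76 there, with *Cubn* and *Gata6* called lower and *Afp* higher. With the visceral endoderm sum as a covariate over all 11 libraries, *Lrp2* changed by -3.26 (adjusted p 0.00392) and *Sparc* by -1.95 (adjusted p 0.001).

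Of the other lower calls, *Car7*, a cytosolic carbonic anhydrase, went from 48.1, 72.8 and 49.1 CPM to a range of 1.48 to 8.28 CPM with a median of 3.75, a log2 fold change of -3.71 ± 0.41 (adjusted p 0.000595). *Lrba*, a protein of vesicle trafficking, fell from 290.5, 321 and 228 CPM to a range of 61.7 to 120.2 CPM with a median of 85.2 (-1.63 ± 0.18 on the log2 scale, adjusted p 0.000551). *Smarca2*, the ATPase BRM of the SWI/SNF chromatin remodeller, fell from 42.2, 70.0 and 37.6 CPM to a range of 5.81 to 13.7 CPM with a median of 11.8 (-2.21 ± 0.27, adjusted p 0.00154). In each of these the stages were separate, again by the rule of choice. *Abcb1b*, a drug efflux pump, was at 20.0 to 30.2 CPM at E5.5 and 1.65 to 5.53 CPM at E6.5 (-2.95 ± 0.37, adjusted p 0.00154). *Ermp1*, an endoplasmic reticulum peptidase, *Slc9a3r1*, the scaffold EBP50 of apical membranes, and *Mfsd1*, a lysosomal transporter, changed on the log2 scale by -1.28 ± 0.15, -1.28 ± 0.16 and -1.71 ± 0.22 (adjusted p 0.00117, 0.00154 and 0.00159). *Rex2*, the last of the 10, belongs to the pluripotency genes below. At E6.5 null 3, 4 and 8, which held the most visceral endoderm RNA, were also the highest in *Lrba*, *Slc9a3r1*, *Mfsd1* and *Sparc*. This was not so for *Car7*, *Smarca2*, *Abcb1b*, *Ermp1*, *Lrp2* or *Rex2*. The part of that tissue in these genes was not tested beyond the fits given. All of the 20 genes kept their call whichever of the 11 libraries was left out, except *Rps2*, which kept it in 7 of 11 fits. In the annotation *Adamts6*, *Igf1r*, *Sparc*, *Lrp2*, *Car7*, *Ermp1*, *Slc9a3r1* and *Mfsd1* overlap no other gene. *E130201H02Rik*, a processed pseudogene singled out after its values were seen, was at 20.7, 19.2 and 13.02 CPM at E5.5 and 0.0892 to 0.660 CPM with a median of 0.308 at E6.5, a log2 fold change of -5.56 ± 0.55 (adjusted p 0.000332).

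The pluripotency factors did not move as 1 group. Of 14 tested genes of the naive list, *Sox2* was called higher and none lower. Their median log2 fold change was -1.62 against 0.07 for all genes. *Sox2* and *Nanog* were among the 3 with a fold change above 0, and 11 were below 0. The list also holds *Pou5f1*, on which the libraries were selected, so its count and median include that gene. The list median was -0.34 with the extraembryonic ectoderm sum as a covariate and -1.35 with the visceral endoderm sum, and *Sox2* was the only call in both. *Sox2*, a partner of OCT4 whose gene lies inside *Sox2ot* on the same strand, was at 14.7, 9.42 and 9.37 CPM at E5.5 and 23.8 to 69.4 CPM with a median of 54.2 at E6.5. The stages did not overlap, and the log2 fold change was 2.19 ± 0.33 (adjusted p 0.00387). *Nanog* was at 2.48, 5.52 and 3.42 CPM at E5.5 and 7.52 to 104 CPM with a median of 22.2 at E6.5. Its stages also did not overlap, but E6.5 null 2 alone reached 104 CPM and the log2 fold change of 3.03 ± 0.81 missed the threshold (adjusted p 0.0525). The expression of *Pou5f1*, on which the libraries were chosen, was at 101, 236 and 178 CPM and 178 to 596 CPM with a median of 498. E6.5 null 1 was the lowest of the 8 in it and within the E5.5 range.

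The naive genes *Esrrb*, *Zfp42* and *Klf5*, which extraembryonic ectoderm also uses, were highest in E5.5 null 2 and 4 and E6.5 null 1. These were the 3 kept libraries with the largest sum of that tissue's markers, and no association was tested. *Tfcp2l1* was instead higher in E6.5 null 4 than in null 1. *Esrrb*, an orphan nuclear receptor of naive cells, read 97.7, 6.28 and 84.8 CPM at E5.5, 73.1 CPM in E6.5 null 1, and at most 5.53 CPM in the other 7. E5.5 null 3 was the low one at E5.5, as it was in the extraembryonic ectoderm sum. *Zfp42* (REX1) was at 52.6, 19.5 and 49.3 CPM, then 54.1 CPM in null 1 and 1.60 to 15.3 CPM in the other 7, and *Klf5* was at 76.0, 35.3 and 93.7 CPM, then 68.4 CPM in null 1 and 4.59 to 38.1 CPM. None of the 3 was called over all libraries (adjusted p 0.337, 0.384 and 0.233), and with the extraembryonic ectoderm sum as a covariate their log2 changes were -0.79, -0.37 and -0.46, again without a call. Without E6.5 null 1 they were called lower, by log2 changes of -4.08, -2.61 and -2.28 (adjusted p 0.00138, 0.0257 and 0.0222). In that fit *Tfcp2l1* was also called lower, at -2.02 (adjusted p 0.0452), and *Nanog* higher, at 3.17 (adjusted p 0.0254). *Tfcp2l1* and *Tbx3*, targets of the LIF pathway in stem cells, were lower in every E6.5 library than in each E5.5 library without passing the test over all libraries, their log2 changes being -1.84 ± 0.55 and -1.96 ± 0.57 (adjusted p 0.0835 and 0.0765). At E6.5 *Tbx3* was highest in null 3, 8 and 4, the libraries with the most visceral endoderm RNA of that stage. *Fgf4*, the FGF ligand of the early epiblast, had -1.72 ± 0.49 (adjusted p 0.0613).

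Among 13 developmental pluripotency genes, *Lin28b* was called higher and *Dppa4*, *Dppa5a* and *Rex2* lower, with a list median of 0.16. *Lin28b*, which blocks let-7 processing, went from 15.9, 26.9 and 31.3 CPM to a range of 45.5 to 151 CPM with a median of 115, a log2 fold change of 2.17 ± 0.34 (adjusted p 0.00455). *Dppa5a* encodes a small RNA-binding protein of pluripotent cells. It was at 40.5, 38.6 and 32.6 CPM and then 2.71 to 11.6 CPM with a median of 6.34, a log2 fold change of -2.54 ± 0.35 (adjusted p 0.00224). *Rex2*, a zinc finger gene, was at 26.5, 69.9 and 55.0 CPM and then 2.11 to 8.67 CPM with a median of 7.43 (-2.99 ± 0.37, adjusted p 0.00154). These 3 genes separated the stages, which the choice of *Rex2* required, and kept their call without any 1 library. *Dppa4*, a chromatin protein, was even at E5.5 with 37.9, 39.4 and 39.9 CPM and fell to 1.82 to 20.8 CPM with a median of 5.12 (-2.47 ± 0.56, adjusted p 0.0244), with null 1 the highest at E6.5 and the call kept in 5 of 11 fits. Its partner *Dppa2* was at 23.9, 46.0 and 39.1 CPM and then 0 to 8.69 CPM with a median of 1.51 without a call (adjusted p 0.0669). *Dppa5a*, *Dppa4* and *Rex2* share stretches of 95% identity or more with annotated copies, so their counts may include reads of those. Genes of the list under the fold threshold but past the adjusted p all moved upward, *L1td1* by 0.63 ± 0.16, *Trim71* by 0.61 ± 0.13, *Lin28a* by 0.51 ± 0.13 and *Sall4* by 0.44 ± 0.11.

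Of 14 primed factors, *Sox11*, *Sox4* and *Zic5* were called higher, with a median of 0.63. *Sox11* and *Sox4*, related SOXC factors, both rose. *Sox11* went from 25.1, 49.1 and 34.97 CPM to a range of 83.3 to 266 CPM with a median of 197 (2.39 ± 0.34, adjusted p 0.00291) and *Sox4* from 49.6, 69.8 and 83.2 CPM to a range of 92.1 to 211 CPM with a median of 194 (1.44 ± 0.23, adjusted p 0.00459). The antisense gene *Gm26735* lies over *Sox4*, and the strand setting of the counting was not given. *Zic5*, a zinc finger gene of neural development, was at 36.4, 40.01 and 66.8 CPM and then 72.2 to 155 CPM with a median of 113 (1.23 ± 0.24, adjusted p 0.0131). For all 3 genes the stages were separate. None kept its call through all of the fits with a tissue sum as a covariate or with E5.5 null 1 added. With the extraembryonic ectoderm sum as a covariate *Sox11* stayed called, *Sox4* changed by 0.99, under the fold threshold, and *Zic5* by 0.96 (adjusted p 0.126). With the visceral endoderm sum *Zic5* was not called (adjusted p 0.107), and with E5.5 null 1 added *Sox11* and *Sox4* were not (adjusted p 0.0562 and 0.19). The ligand *Fgf5*, a marker of the formative epiblast, was at 100.4, 131 and 94.6 CPM at E5.5 and at 105 to 143 CPM in 7 of the E6.5 libraries, with 18.9 CPM in null 1. Its log2 fold change was 0.04 ± 0.40 (adjusted p 0.979) and 0.20 without null 1 (adjusted p 0.424). *Otx2* was at 60.5, 99.6 and 71.9 CPM and then 50.3 to 183 CPM with a median of 169.5 (0.95 ± 0.31, adjusted p 0.107), and was called without null 1 at 1.08 (adjusted p 0.00431).

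Streak genes were uneven across the E6.5 epiblasts. Of 15 tested, *T* alone was called, and the list median was -0.82. *T* had no count in any of the 3 E5.5 libraries, and at E6.5 it was at 0 in null 3, 28.6 CPM in null 2 and 1.16 to 4.78 CPM in the other 6. Against the floor of 3 counts per E5.5 library, its mean at E6.5 was at least 56.6-fold higher (adjusted p 0.0493), and the call held in 3 of 11 fits. This bound rests largely on null 2, and without it the mean of the other 7 was 2.55 CPM, at least 24.9-fold above the floor (adjusted p 0.0443). *T* was not called with either tissue sum as a covariate (adjusted p 0.191 and 0.129). E6.5 null 2 was also the highest in *Wnt3*, the WNT ligand that starts the streak, with 49.1 CPM against at most 18.4 CPM elsewhere at E6.5, and in *Fgf8*, with 162 CPM against at most 71.4 CPM. In all, 7 of the 16 streak genes above 1 CPM peaked in null 2, and 7 were lower in null 1 than in each other E6.5 library. Null 2 and null 3 had the fewest genes detected of the 11 libraries.

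*Eomes*, a T-box factor of both streak and extraembryonic tissue, was at 472, 415 and 391 CPM and then 104 to 503 CPM with a median of 178 without a call (-0.97 ± 0.44, adjusted p 0.272). *Lhx1*, used by both streak and anterior visceral endoderm, was at 159, 168 and 143 CPM at E5.5 and spread from 0.114 CPM in null 1 to 129 CPM in null 4 (adjusted p 0.465). *Mixl1*, a homeobox gene of mesendoderm, was at 51.5, 68.9 and 33.8 CPM and then 0 to 22.8 CPM with a median of 8.92 (adjusted p 0.235). Without null 1, *Mixl1*, *Hand1* and *Foxa2* were called lower beside the higher *T*. *Hand1* is also a member of the extraembryonic ectoderm list, and the paper used FOXA2 as a marker of visceral endoderm. Neither gene is therefore particular to the streak.

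Of 12 neural progenitor genes, *Msi1* and *Nes* were called higher and none lower, with 6 fold changes above 0, 6 below and a list median of 0.02. *Nes*, the intermediate filament nestin, was at 39.2, 28.8 and 40.8 CPM and then 83.4 to 144 CPM with a median of 104 (1.59 ± 0.20, adjusted p 0.00159), with no overlap. *Sox1*, an early neural plate factor, was at 0 to 3.33 CPM at E6.5, against 0 to 1.89 CPM at E5.5.

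Of the signalling lists, the WNT list had 1 higher call of 17, *Sfrp2*, the NODAL and BMP list 1 of 18, *Lefty2*, and the FGF and ERK list none of 15. Their medians were 0.07, -0.29 and 0.17. *Lefty2* encodes a secreted inhibitor of NODAL and is itself a NODAL target. Part of its transcript matches *Lefty1* at 97.6% identity. It was at 0.872, 0 and 0.673 CPM at E5.5 and 2.85 to 17.2 CPM with a median of 7.60 at E6.5, with the stages separate and a log2 fold change of 4.07 ± 1.04 (adjusted p 0.0418). The call held in 4 of 11 fits. *Sfrp2*, a secreted WNT antagonist, rose from 7.06, 23.7 and 10.5 CPM to a range of 26.8 to 57.0 CPM with a median of 34.9 (1.43 ± 0.35, adjusted p 0.0352), and also kept its call in 4 of 11. *Tcf7l1*, the repressor TCF3 of WNT targets, and *Acvr2b*, an activin receptor, passed the adjusted p with changes of 0.95 ± 0.17 and 0.80 ± 0.15. *Axin2*, a feedback target of WNT, was at 19.2, 60.2 and 25.6 CPM and then 17.4 to 149.6 CPM with a median of 43.1 (adjusted p 0.688), with null 2 at the top. In the FGF list *Spry4*, a feedback inhibitor of ERK signalling, passed the adjusted p with -0.88 ± 0.21 (adjusted p 0.0294). *Bmp4*, which extraembryonic ectoderm secretes, was at 58.8, 6.81 and 58.9 CPM and then 0 to 16.1 CPM with a median of 2.92 (adjusted p 0.208).

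In the JAK and STAT list, 1 of 20 genes was called higher and 2 lower, with a median of -0.40. Reads on *Stat3*, given above by library, fell with a log2 fold change of -2.14 ± 0.50 (adjusted p 0.0278) and without overlap, and the call held in 8 of 11 fits. *Stat5b*, a related STAT, fell from 43.4, 54.9 and 42.0 CPM to a range of 5.41 to 25.2 CPM with a median of 12.3 (-1.64 ± 0.39, adjusted p 0.0293), also without overlap, with the call kept in 5 of 11. The kinase gene *Pim2* was at 84.7, 142 and 62.1 CPM and then 112 to 298 CPM with a median of 236 (1.22 ± 0.31, adjusted p 0.0407). Here null 1, at 112 CPM, was below the highest E5.5 library, and the call held in 3 of 11. *Stat5a* overlaps the antisense side of *Stat3* in the annotation. *Socs3*, the feedback inhibitor that STAT3 induces, was low at both stages, with 2.96, 1.39 and 3.49 CPM and then 0 to 4.61 CPM (adjusted p 0.975). *Jak1* was at 101, 82.9 and 107 CPM and then 26.5 to 90.5 CPM with a median of 40.6 (-1.03 ± 0.32, adjusted p 0.0906) and was called lower without null 1.

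The glycolysis list held 1 call of 17, the mitochondrial list none of 13 and the cell cycle list 1 of 19, against 2.72% of all genes tested. These counts are too small to set a list apart from that share. Of 17 glycolysis genes, *Pfkm*, muscle phosphofructokinase, was called higher and none lower, with 15 of 17 fold changes above 0. The list median was 0.30 against 0.07 for all genes. *Pfkm* was at 25.5, 21.3 and 25.1 CPM and then 25.3 to 64.4 CPM with a median of 50.7 (1.03 ± 0.27, adjusted p 0.0497), with the call held in 2 of 11 fits, and *Pkm*, pyruvate kinase, passed the adjusted p at 0.45 ± 0.09. None of 13 mitochondrially encoded protein genes was called, with a median of -0.06 and a range of -0.40 to 0.05. Of these *mt-Co3* passed the adjusted p at -0.40 ± 0.09. Of 19 cell cycle genes, *Ccnd1*, cyclin D1, rose from 21.0, 31.0 and 45.9 CPM to a range of 58.2 to 245 CPM with a median of 156 (2.27 ± 0.38, adjusted p 0.00671), with no overlap. *Ccnd2*, cyclin D2, was at 0.654, 6.08 and 0.828 CPM and then 4.31 to 83.9 CPM with a median of 14.5 without a call (adjusted p 0.133), and its top value was null 2 again.

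None of 10 DNA methylation genes was called. *Dnmt3b*, the main de novo methyltransferase of the epiblast, was at 1293, 2235 and 2062 CPM and then 2454 to 4649.6 CPM with a median of 3597, and passed the adjusted p at 0.93 ± 0.21 (0.0229) with no overlap. Its cofactor *Dnmt3l* was at 55.2, 124 and 74.8 CPM and then 2.42 to 82.1 CPM with a median of 12.9, with null 1 the highest at E6.5 (adjusted p 0.21). None of 15 germline genes was called, with a median of -1.27. Of 17 adhesion genes, *Lama1*, a laminin chain of the basement membrane, was called lower, at 383, 291 and 179 CPM and then 10.8 to 107 CPM with a median of 43.9 (-2.54 ± 0.53, adjusted p 0.0216). *Col4a1*, the collagen of the same membrane, was at 1920.3, 2265 and 1377 CPM and then 128 to 921 CPM with a median of 211 and missed the threshold (-2.28 ± 0.58, adjusted p 0.0524). At E6.5 both were highest in null 3, the library with the most visceral endoderm RNA of that stage, and with that sum as a covariate their log2 fold changes were -1.87 and -1.03. *Lama1* was then not called (adjusted p 0.219), nor with the extraembryonic ectoderm sum (adjusted p 0.158). The epithelial cadherin *Cdh1* read 739, 606 and 921 CPM and then 520.2 to 890.5 CPM with a median of 638 (adjusted p 0.63).

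Of the neighbouring tissues' own markers, none of 18 visceral endoderm genes was called, with 15 of 18 fold changes below 0 and a median of -1.83. Of 16 extraembryonic ectoderm genes, *Plet1* was called lower, with 15 of 16 below 0 and a median of -1.19. *Plet1* was at 65.3, 18.1 and 59.8 CPM and then 1.30 to 16.9 CPM with a median of 5.09 (-2.74 ± 0.69, adjusted p 0.0389). Without E6.5 null 1, 8 of the 16 were called lower, among them *Hand1*, which was at 102, 12.9 and 104 CPM at E5.5, 210.1 CPM in null 1 and at most 16.2 CPM in the other 7. None of the 4 maternal and blood genes tested was called.

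**Figure D4:**
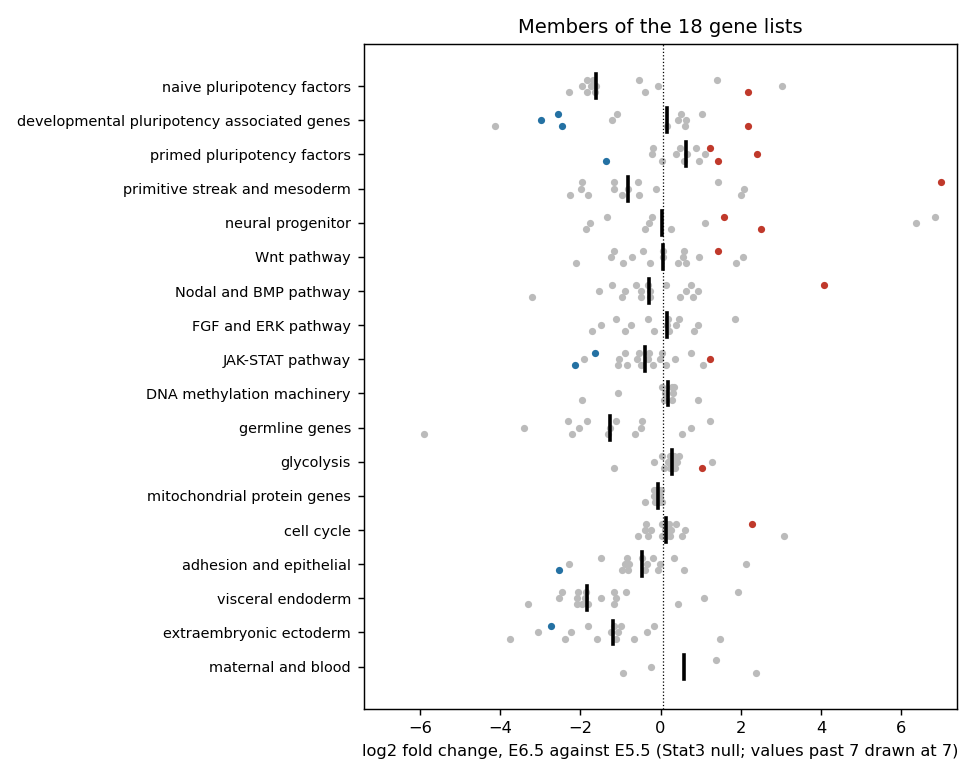
Log2 fold change from E5.5 to E6.5 in *Stat3* null epiblasts (horizontal) for each tested member (point) of 18 gene lists (vertical), with red and blue points for called genes, grey for the rest, a black bar at the list median and a dotted line at the median of all genes, 0.07. Most lists centre near 0, while the naive, visceral endoderm, germline and extraembryonic ectoderm lists have medians below -1 with at most 1 called member each. The naive list includes *Pou5f1*, on which the libraries were selected.

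WT epiblasts of the same stages share no library with the null ones. In WT, 1070 of 20763 genes were called, 5.15%, from 2 libraries at E5.5. Of the 520 null calls, 514 were tested in WT, 511 of these moved the same way there and 282 were called, which is 54.2% of the null calls and 26.4% of the WT calls. Over all 18636 genes tested in both, 73.7% had the same sign. The median log2 fold change of the genes called higher in null was 1.65 in null and 1.39 in WT, and of those called lower -1.61 and -1.48. The genes were selected on the null fit, which favours larger changes there, so these medians do not compare the genotypes. Stage cannot be told apart from anything else that differed between the E5.5 and E6.5 libraries of both genotypes. For *Setd7* the log2 fold change was 1.57 in WT against 2.01 in null, for *Msi1* 2.68 against 2.50, for *Lrp2* -3.74 against -3.96 and for *Dppa5a* -3.07 against -2.54.

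**Figure D5:**
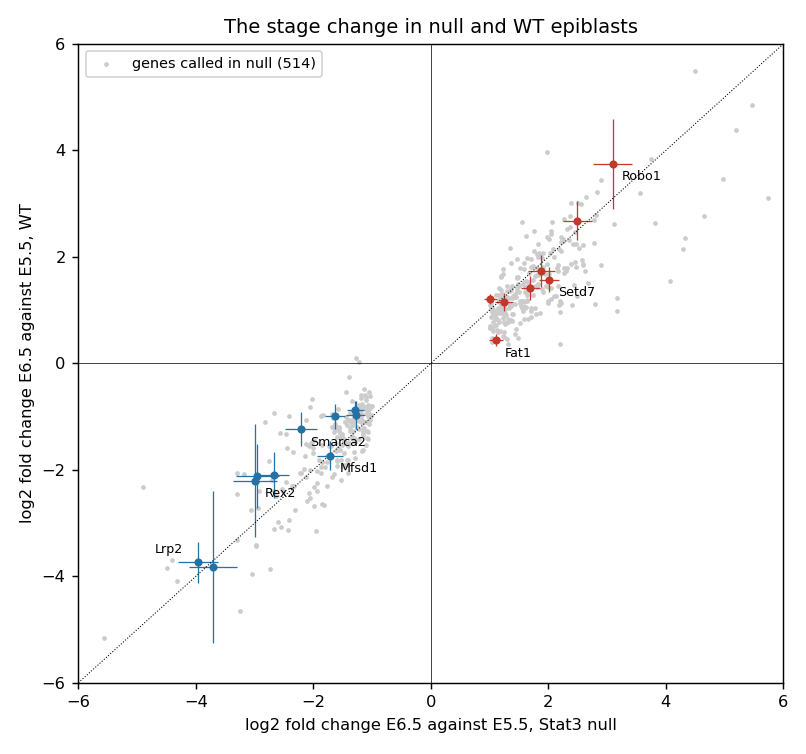
Log2 fold change from E5.5 to E6.5 in *Stat3* null (horizontal) and WT epiblasts (vertical) for 514 genes called in null and tested in WT (grey), of which 29 lie outside the axes, and for the described genes with the smallest p in each direction without *Adamts6* (red and blue, bars are SE). The points lie near the dotted line of equal change in the lower left and upper right; *Fat1* lies below it.

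The difference between the null and WT changes was tested as an interaction in 1 fit of all 22 libraries. Of 22577 genes, 3 were called, 0.0133%, and 943 had an unadjusted p under 0.05. The 3 genes, *Nkd2*, *Lrrc8c* and *Adamts6*, had no count in any of the 3 null libraries at E5.5 and were present in both WT libraries. *Nkd2*, an inhibitor of WNT signalling, was at 2.82 and 1.93 CPM in WT at E5.5, and in null at 1.03 to 4.61 CPM with a median of 2.54 at E6.5, at least 25.1-fold above the floor of 3 counts at E5.5. *Lrrc8c*, a subunit of the volume-regulated anion channel, was at 2.59 and 2.18 CPM in WT at E5.5 and in null at 2.32 to 13.6 CPM with a median of 5.73 at E6.5, at least 67.7-fold above that floor. *Adamts6* was at 0.226 and 1.12 CPM in WT at E5.5. The adjusted p of the interaction were 0.00459, 0.0186 and 0.0209, and the call count was 0 without E5.5 null 4 (edgeR) and 6 without E5.5 WT 2. The left-out E5.5 null 1 had 43 counts on *Nkd2* and none on the other 2.

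Among genes with counts in every group, *Fat1* had the larger log2 fold change in null by 0.68 ± 0.16 without passing the threshold (95% interval 0.35 to 1.01, unadjusted p 0.00022, adjusted p 0.709). *Sox2* differed by 1.24 ± 0.37 (interval 0.47 to 2.01, unadjusted p 0.00249, adjusted p 1). The genes of smallest p with a lower change in null were *Hist2h2ab*, a histone, *Fbn2*, fibrillin-2, and *Zfp94*, a zinc finger gene, and none passed (adjusted p 1, 1 and 1). In null *Hist2h2ab* went from 47.4, 51.0 and 47.7 CPM to a range of 19.0 to 35.1 CPM with a median of 28.0, while WT epiblasts had 29.5 and 16.2 CPM at E5.5 and a mean of 40.1 ± 12.1 CPM (SD, n = 9) at E6.5. *Fbn2* was listed at 0 in both WT libraries at E5.5 and at 0.926 to 4.45 CPM in null, and *Zfp94* at 1.47 and 0.703 CPM in WT and 3.90 to 6.96 CPM in null.

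*Rps2*, a ribosomal protein gene, and its processed pseudogene *Rps2-ps13* on chromosome X moved in opposite directions. *Rps2-ps13*, whose name kept it outside the rule and which was singled out after its values were seen, had the smallest p of all genes. It was at 309.8, 304 and 296 CPM at E5.5 and 51.8 to 68.3 CPM with a median of 56.5 at E6.5, a log2 fold change of -2.37 ± 0.10 (adjusted p 5.26e-08). *Rps2* was at 358, 291 and 334 CPM and then 521 to 728 CPM with a median of 673 (1.02 ± 0.11, adjusted p 0.000551). *Rps2* lies at chr17:24718116-24721929 and *Rps2-ps13* at chrX:52898588-52899469. The transcripts share 882 aligned bases at 99.2% identity, and *Rps2* has further annotated copies, so reads can fall on either, and each value is uncertain. Their summed level was 631 ± 36.1 CPM (SD, n = 3) at E5.5 and 713 ± 70.6 CPM (SD, n = 8) at E6.5, and the 2 ranges overlapped. In WT the log2 fold changes were -2.31 and 1.21.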

How the data were processed

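Bulk RNA-seq of single *Stat3* null and WT mouse epiblasts was analysed from the table of raw gene counts that the authors deposited for all epiblast libraries. Per the labels, RNA was isolated with a Picopure kit and libraries were made with a SMARTer Stranded Pico kit, and the submitters' processing notes name Trim Galore, HISAT2, StringTie and the builds GRCm38 and mm10. The annotation release and the strand setting of the counting were not given in the sources used here, so reads of overlapping genes cannot be told apart. The table held 47643 genes, and 0 of its columns were left without a sample.

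Genes were kept with filterByExpr in edgeR (4.0.16, R 4.3.3; minimum count 10, minimum total 15), scaled by TMM and fitted with the robust quasi-likelihood model. A gene was called at a Benjamini-Hochberg adjusted p under 0.05 and a log2 fold change over 1 in size. CPM were raw counts scaled to the library total over all genes. All tests were two-sided. The group SDs give the spread between single embryos, on which the tests rest. Litter was not recorded, so the tests treated each embryo as independent, also those that may share a litter. Values named in the text were the 10 higher and 10 lower calls with the smallest p among genes whose stages did not overlap, and the 3 genes with the smallest interaction p in each direction, leaving out symbols of the form Gm and digits, Rik and -ps as well as Xist and Y-linked genes, with members of the 18 gene lists beside them. *Trh*, *Rps2-ps13* and *E130201H02Rik* were chosen after their values were seen. A gene that the rule names and a list member are not reported here, though both stay in the counts and medians. The members and the lists were chosen with earlier results of these data known. The steps were tested on simulated data. Alternatives were DESeq2 (1.42.0), limma voom with sample weights (3.58.1), other scalings, filters and subsets of libraries, and, added after seeing the data, the tissue marker sums as covariates and fits by genes detected or visceral endoderm level. Transcript copies were searched with blastn (2.17.0), and positions and promoters were taken from annotations of GRCm38. Fold bounds use a floor of 3 counts per library and cover counting error only. Columns of other stages and the epiblast stem cell lines were not used here.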

Additional observations from a re-analysis of the deposited data

Results flagged for a closer look

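Among 89 genes screened at E6.5, values of a single null library stood far from the other 7 by Dixon's criterion for 12, where chance would give about 1 in 20 groups. In E6.5 null 1, the library with the most extraembryonic ectoderm RNA of its stage, *Robo1* was lowest at 36.4 CPM, *Lrp2* at 143 CPM, *Fgf5* at 18.9 CPM, *Otx2* at 50.3 CPM and *Sox4* at 92.1 CPM. *Mixl1* and *Wnt3* had 0 counts there, and *Esrrb* was highest at 73.1 CPM. In E6.5 null 2, *Utf1*, a chromatin protein of pluripotent cells, was lowest at 75.2 CPM and *Ccnd2* highest at 83.9 CPM. In E6.5 null 3, *Fbn2* and *Socs3* had 0 counts.

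The test of the interaction between stage and genotype passed for *Nkd2*, *Lrrc8c* and *Adamts6*, with fitted differences (null minus WT) of 9.07, 8.98 and 7.45 on the log2 scale. All 3 genes had no count in the 3 E5.5 null libraries, so these sizes depend on the prior count and are no measure of the fold. The calls rest on few libraries. Without E5.5 null 4 no gene was called by edgeR, though 844 had an unadjusted p under 0.05, without E5.5 null 2 or null 3 a single one of the 3 was still called, and with voom sample weights 1 of the 3. The left-out E5.5 null 1 had 43 counts on *Nkd2*.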

How the results depend on the processing

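The null comparison gave 520 calls. It gave 1092 with DESeq2, 2049 (573 higher, 1476 lower) with voom sample weights, 1934 in libraries under 40000000 counts, 852 with all E5.5 and E6.5 libraries in 1 fit, and 131 to 864 with 1 library left out (202 and 227 without E5.5 null 3 or 4, 820 without E6.5 null 1, and 333, 333 and 325 without E6.5 null 5, 6 or 7). With settings chosen after seeing the data it gave 204 with the visceral endoderm sum and 125 with the extraembryonic ectoderm sum as covariate, 1113 without E6.5 null 2 and 3, and 224 with only E6.5 null 3, 4 and 8. *Apob* reversed to 1.19 under the visceral endoderm covariate, which it is itself part of. The WT comparison of 1070 gave 1936 with DESeq2, 2131 with voom weights, 2698 in libraries under 40000000 counts, 657 in 1 fit, and 102 to 2029 with 1 library left out. The 3 interaction calls became 55 with DESeq2, 7 with voom weights, 28 in libraries under 40000000 counts, and 0 to 6 with 1 library left out. The causes were not tested.

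The replicate numbers were not used to pair the samples. Deviations from the group means of same-numbered null libraries of the stages correlated at -0.00, 0.01 and -0.10, which cannot exclude a litter or batch shared by number. With the replicate number as a block the null comparison gave 2 calls, the WT comparison 101 and the interaction 0. In the null and WT fits the block terms left few libraries to estimate the spread, so these counts do not compare with the main ones.

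Only 3 null epiblasts stand for E5.5, each selected on *Pou5f1*, and 2 WT ones. Marker RNA of the neighbouring tissues differed between the stages, and beyond the values given tissue and stage cannot be told apart.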
